A study of Mus musculus with 17 samples.

Results

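The genes described here are 44 mouse genes of the cell cycle and DNA replication, listed by name and read by role. 10 act in G1 and at entry into S phase, 13 in S phase, 18 in G2 and mitosis, and 3 are inhibitors of cyclin-dependent kinases. They were found through the array platform's gene table, and where a gene had several probe sets the brightest on average was used. A probe set with a gene name was found for 43 of the 44, out of 18194 genes in all. The exception was Ccnb1, the mitotic cyclin B1, so 17 genes stood for G2 and mitosis. All 43 passed the filter on low values in both experiments described below.

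The study asked how retinoic acid (RA), a vitamin A metabolite, acts on the induction of Foxp3, which specifies regulatory T cells, in mouse CD4+ T cells. Transcript levels were measured on 17 Affymetrix M430v2 arrays in 8 groups from 2 experiments. In the memory experiment, CD44hi CD62L- CD25- CD4+ T cells from spleen and lymph nodes of C57BL/6 mice were stimulated for 48 hours with anti-CD3/CD28 beads, IL-2 and 10 ng/ml TGF-beta together with naive CD4+ T cells. They were then sorted away from the naive cells by a congenic marker, after culture with 100 nM RA (MemoryRA, 3 arrays) or without RA (Memory, 3 arrays).

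In the co-culture experiment, CD4+ Foxp3- splenic T cells of C57BL/6-Foxp3/GFP reporter mice were stimulated for 5 days with anti-CD3, 0.6 ng/ml TGF-beta and IL-2 on dendritic cells (DC). They were then sorted by GFP into Foxp3+ and Foxp3- cells. For all 6 arrays used as Foxp3+, the title and the recorded sort say Foxp3+, while the source name of 5 says Foxp3-, which is also the state of the starting cells. The dendritic cells came from the lamina propria of the gut (LP-DC; 2 Foxp3+ and 2 Foxp3- arrays), from spleen with 100 nM RA added (Sp-DC with RA; 2 Foxp3+ arrays and 1 Foxp3- array) or from spleen without RA (Sp-DC; 2 Foxp3+ and 2 Foxp3- arrays). The labels name no added RA for the LP-DC cultures. Every array held RNA pooled from 3 male mice aged 6 to 10 weeks and amplified over a pair of rounds. The labels do not say whether arrays of a group came from separate cultures, so p-values measure the spread between these arrays, which may be technical in part.

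A T cell that divides passes from G1 through DNA replication in S phase to G2 and mitosis. D-type cyclins with Cdk4 and Cdk6, then E-type cyclins with Cdk2, release E2F factors, which switch on the genes for the replication machinery. Mitotic genes are mostly switched on later, while inhibitors such as Cdkn1a, Cdkn1b and Cdkn2c hold the kinases back. Stimulated CD4+ T cells are known to leave quiescence and divide rapidly after a lag, and regulatory T cells induced in culture divide as they acquire Foxp3.

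All levels below are log2 of the deposited intensity. A level belongs to its own probe set, so levels are compared between arrays and never between genes. Differences are log2 differences with the standard error of the limma model. A gene was called at a Benjamini-Hochberg adjusted p under 0.05 over all genes tested. Arrays of different groups that carry the same number in the labels deviated together, so each comparison was also fitted with the array number as a block, and that value is printed wherever it changes a call.

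Promoters, from 250 bases before to 50 bases after the annotated start, were present in the RefSeq table (GRCm38.p6) for 35 of the 44 genes, with 40 starts in all. One is shown for each role, so that the motifs counted below can be seen in place. Among the genes with a promoter there, it is from the gene called in most comparisons and, among equals, by the largest difference. Ccnd2 and Ccna2 had no promoter there and were passed over. Capitals mark matches on either strand to E2F-type letters (TTGGCGC or TTCCCGC), to the TTTGAA letters of the cell cycle homology region, to CCAAT boxes and to CACGTG E-boxes. Cdc6, which loads the replicative helicase at origins, stands for S phase (chr11:98907901-98908200, plus strand). Kif11, a motor that separates the spindle poles, stands for mitosis (chr19:37376132-37376431, plus strand). E2f2, a transcription factor of the G1 to S transition, stands for S entry (chr4:136172024-136172323, plus strand). Cdkn1a, an inhibitor that is also a target of p53, stands for the inhibitors (chr17:29090729-29091028, plus strand).
Cdc6: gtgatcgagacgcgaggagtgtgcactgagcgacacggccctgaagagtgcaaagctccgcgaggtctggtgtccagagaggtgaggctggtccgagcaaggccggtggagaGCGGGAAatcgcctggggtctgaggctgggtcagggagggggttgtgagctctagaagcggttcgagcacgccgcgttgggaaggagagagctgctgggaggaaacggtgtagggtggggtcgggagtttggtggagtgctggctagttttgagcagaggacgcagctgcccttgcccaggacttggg
Kif11: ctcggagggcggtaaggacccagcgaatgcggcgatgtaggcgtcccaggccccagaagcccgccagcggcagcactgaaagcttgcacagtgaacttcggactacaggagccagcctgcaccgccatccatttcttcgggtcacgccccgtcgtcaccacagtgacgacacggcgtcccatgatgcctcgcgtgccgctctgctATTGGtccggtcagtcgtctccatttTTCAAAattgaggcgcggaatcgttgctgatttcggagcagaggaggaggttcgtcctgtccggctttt
E2f2: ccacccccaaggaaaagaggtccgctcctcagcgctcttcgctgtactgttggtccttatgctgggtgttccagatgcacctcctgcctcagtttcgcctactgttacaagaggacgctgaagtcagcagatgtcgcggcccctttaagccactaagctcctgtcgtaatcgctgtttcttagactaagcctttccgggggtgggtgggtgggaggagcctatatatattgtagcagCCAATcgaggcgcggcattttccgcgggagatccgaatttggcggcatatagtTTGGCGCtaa
Cdkn1a: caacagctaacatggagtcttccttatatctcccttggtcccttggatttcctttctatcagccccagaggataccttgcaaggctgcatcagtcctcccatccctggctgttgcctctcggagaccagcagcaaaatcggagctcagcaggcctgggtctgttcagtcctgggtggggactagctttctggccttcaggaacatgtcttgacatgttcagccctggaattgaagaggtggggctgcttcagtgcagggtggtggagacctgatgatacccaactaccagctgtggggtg

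The Cdc6 window holds 1 E2F-type match, beginning at base -138 from the start. In the Kif11 window a CCAAT box begins at base -45 and a TTTGAA match at base -19. E2f2 has a CCAAT box at base -13 and an E2F-type match that begins 41 bases into the transcript. None of these letters occur in the window of Cdkn1a. Among S phase promoters, 8 of 12 (66.7%) held an E2F-type match, against 3 of 14 (21.4%) for G2 and mitosis and 6.81% of all 32851 promoters. TTTGAA was found in 9 of 14 promoters for G2 and mitosis (64.3%), against 1 of 12 for S phase (8.33%) and 17.9% of all promoters. CCAAT boxes were in 9 of 12 S phase promoters (75%) and 12 of 14 for G2 and mitosis (85.7%), against 37.4% of all. A match is a string of letters and not a measured binding site.

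The labelled cell types were checked against markers. Of 8 genes that mark T cells, the 7 with a probe set were above the array median in every group. Of 9 measured genes of dendritic and myeloid cells, 4 were above it in every group, with summed intensities of 516 to 757 in memory cells and 540 to 616 in co-cultured cells, and neither of 2 measured erythroid genes was. The Foxp3 probe set lay below the filter in the co-culture and was not tested there. It read 4.09 to 4.53 on Foxp3+ arrays and 3.88 to 4.44 on Foxp3- arrays, against 7.08 to 9.14 on memory arrays. This probe set thus did not set the sorted groups apart. Gpr83, another gene typical of regulatory T cells, was higher in cells labelled Foxp3+ by 2.54 over the mean of the 3 cultures (limma, adjusted p = 0.0154). The 2 memory arrays numbered 3 stood apart. They correlated at 0.92 to 0.941 with the other memory arrays and at 0.99 with each other, while the memory arrays numbered 1 and 2 correlated at 0.981 to 0.987 among themselves. For the cell cycle and DNA replication genes listed by name, called values that moved by over 1.5 times without the memory arrays numbered 3 are given both ways. Differences of single genes outside that list are given with all arrays only.

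**Figure D1:**
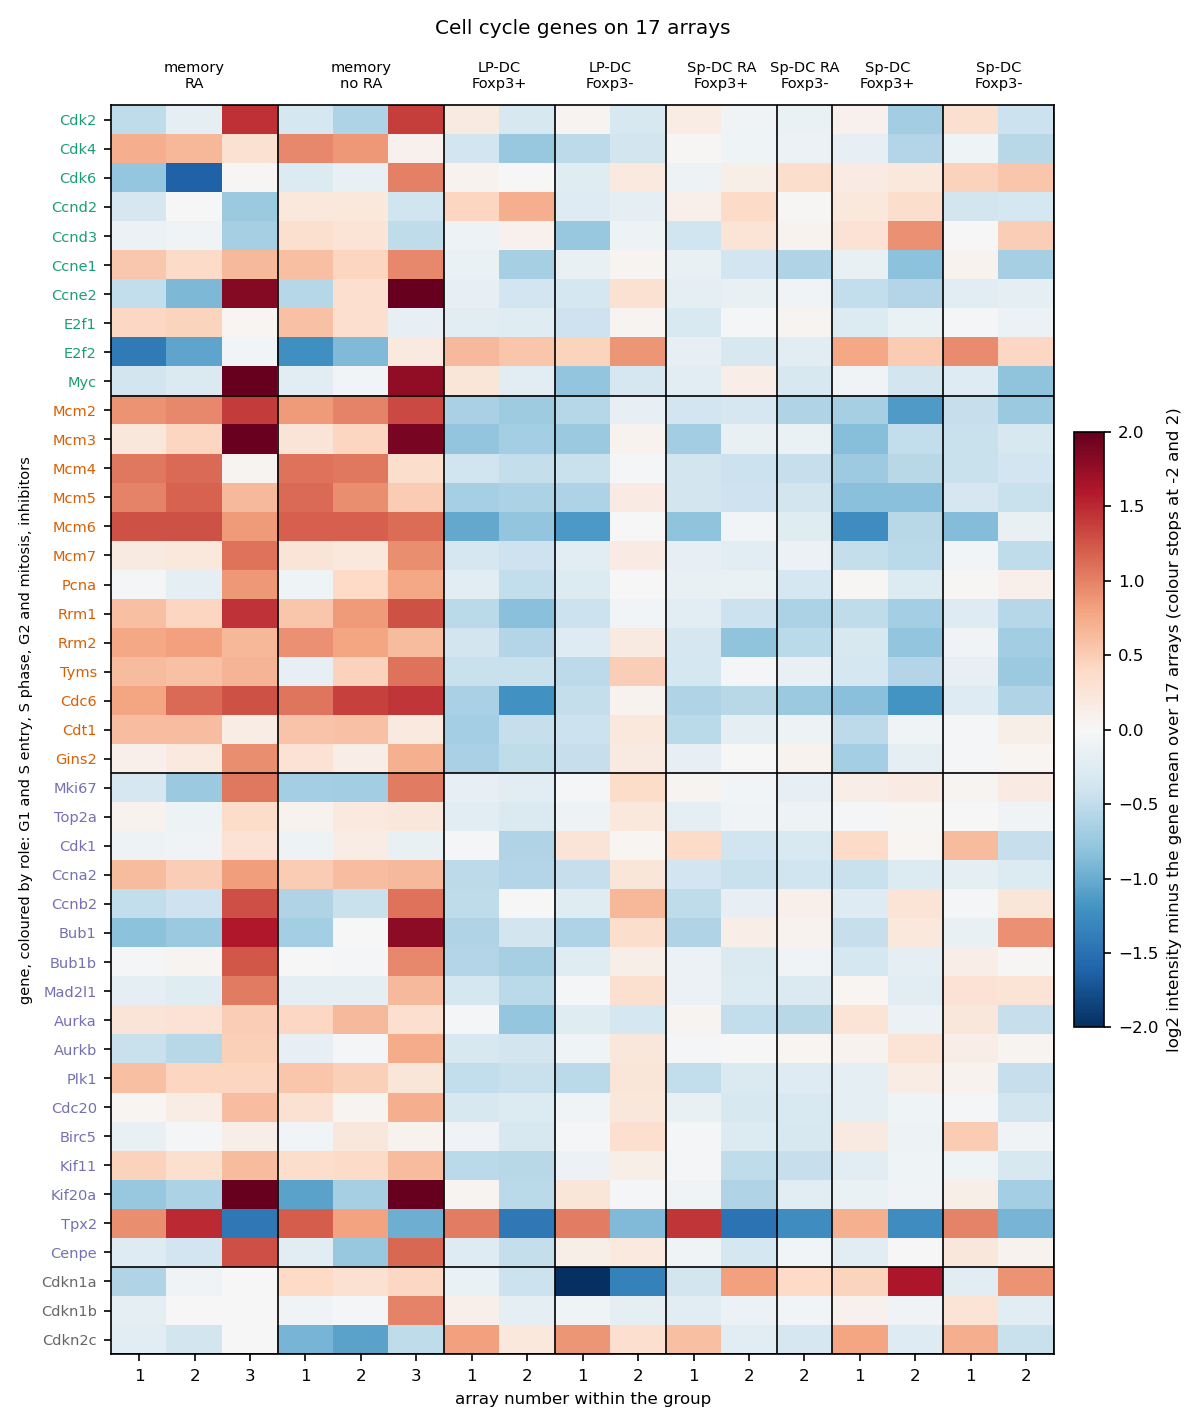
Log2 intensity of the 43 genes (rows, in 4 blocks by role) on 17 arrays (columns, by group and array number), each minus the gene's mean over all arrays; red is above and blue below that mean. The S phase block is red on nearly all memory arrays and pale or blue on nearly all co-culture arrays, while several mitotic genes are red only on the memory arrays numbered 3.

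Memory cells had higher levels of DNA replication transcripts than co-cultured cells. All 13 S phase genes were called higher in memory cells, with a median difference of 1.22, against 0.05 over all genes, and 9 of them with the block described above. Only 6 of 17 genes of G2 and mitosis were called, all of them higher (2 with the block), with a median of 0.28. In the G1 group 3 of 10 genes rose and 1 fell, and of the 3 inhibitors Cdkn2c fell. Counted together, 22 genes were called higher and 2 lower, against 21.9% and 20.1% of the 11537 genes tested. With the array number of each experiment as a random block, 12 were called higher and 1 lower, against 9.15% and 9.18% of all genes. On 13 genes every memory array was above every co-culture array, 9 of them S phase genes, against 10.2% of all genes, and on none was it below, against 7.81%. In all, 36 of the 43 lay above 0, against 54.7% of all genes. In RNA from bulk cells, more cells in a phase and more transcript per cell cannot be told apart. The 2 experiments differ in the starting cells, in beads or dendritic cells as the stimulus, in TGF-beta dose, in time, in the sort and in the mouse strain, and these and the experiment itself cannot be told apart.

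Among the S phase genes, the 6 subunits of the MCM helicase, which unwinds DNA at the fork, were measured one by one. Mcm2 had a lowest, median and highest level of 10.92, 11.04 and 11.46 in memory cells, against 8.93, 9.46 and 9.90 in co-cultured cells. Mcm6 had 11.97, 12.31 and 12.39 in memory cells, against 9.88, 10.33 and 11.12. For both, every memory array was above every co-culture array, and the differences were 1.66 ± 0.12 (SE; 3.16-fold; limma, adjusted p = 7.49e-07) and 1.74 ± 0.20 (3.35-fold, adjusted p = 1.89e-05). Mcm5 had 11.84, 12.29 and 12.51 in memory cells and 10.49, 10.88 and 11.49 in co-cultured cells. Mcm4 had 12.36, 13.36 and 13.45 in memory cells and 11.58, 11.86 and 12.27 in co-cultured cells. Neither gene overlapped between the experiments, and they rose by 1.38 ± 0.14 and 1.22 ± 0.18. Mcm3 had 9.93, 10.12 and 11.67 in memory cells, against 8.85, 9.20 and 9.77 in co-cultured cells. Its rise of 1.32 ± 0.30 was 0.78 ± 0.15 without the 2 arrays numbered 3, which gave its highest levels. Mcm7 had 11.40, 11.45 and 12.30 in memory cells, against 10.67 to 11.37 in co-cultured cells, and its difference of 0.73 ± 0.17 was called without the block (adjusted p = 0.00329) and not with it (adjusted p = 0.0927). Without the arrays numbered 3 it was 0.47 ± 0.10 and called.

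Factors that load the helicase or build it into a working fork rose too. Cdc6, whose promoter is shown above, had 9.42, 9.84 and 10.07 in memory cells, against 7.43, 8.03 and 8.71 in co-cultured cells. That was the largest difference among the 43 genes in this comparison, 1.83 ± 0.14 (3.55-fold; limma, adjusted p = 7.37e-07), with no overlap of the arrays. Cdt1, the partner of Cdc6 in loading, had 11.04, 11.47 and 11.52 in memory cells and 10.22, 10.70 and 11.10 in co-cultured cells, and Gins2, a part of the active helicase, had 8.60, 8.75 and 9.44 against 7.82, 8.34 and 8.68. Both overlapped between the experiments. Cdt1 rose by 0.69 ± 0.14, although 1 of its 3 probe sets lay on the other side of 0 at -0.18. Gins2 rose by 0.59 ± 0.16, a call that the block ended (adjusted p = 0.138), and by 0.38 ± 0.13 without the arrays numbered 3.

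Enzymes that supply deoxynucleotides showed large differences. Rrm1, the large subunit of ribonucleotide reductase, had 10.92, 11.21 and 11.93 in memory cells and 9.65, 9.98 and 10.43 in co-cultured cells. Rrm2, its small subunit, had 12.97, 13.11 and 13.24 against 11.53, 11.97 and 12.52. Neither overlapped, and both rose, Rrm1 by 1.34 ± 0.17 and Rrm2 by 1.19 ± 0.13. The 3 probe sets of Rrm1 ranged from -0.94 to 2.01, so its direction and its size depend on the probe set. Tyms, which makes thymidylate, had 6.30, 7.07 and 7.55 in memory cells, against 5.73, 6.11 and 6.96 in co-cultured cells, and was called at 0.83 ± 0.20 (adjusted p = 0.00455), but with the block its adjusted p was 0.279 and only 2 of its 4 probe sets lay above 0. Its lowest co-culture levels lay near or below the array medians of 5.88 to 5.98. Pcna, the sliding clamp of the DNA polymerases, had 12.23, 12.61 and 13.30 in memory cells and 11.93, 12.28 and 12.52 in co-cultured cells. Its difference of 0.47 ± 0.17 was the smallest of the S phase genes. It was called (adjusted p = 0.0473), but not with the block (adjusted p = 0.371), not without the arrays numbered 3 (0.20 ± 0.11, adjusted p = 0.153), and in only 3 of 16 fits that each left out 1 array.

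**Figure D2:**
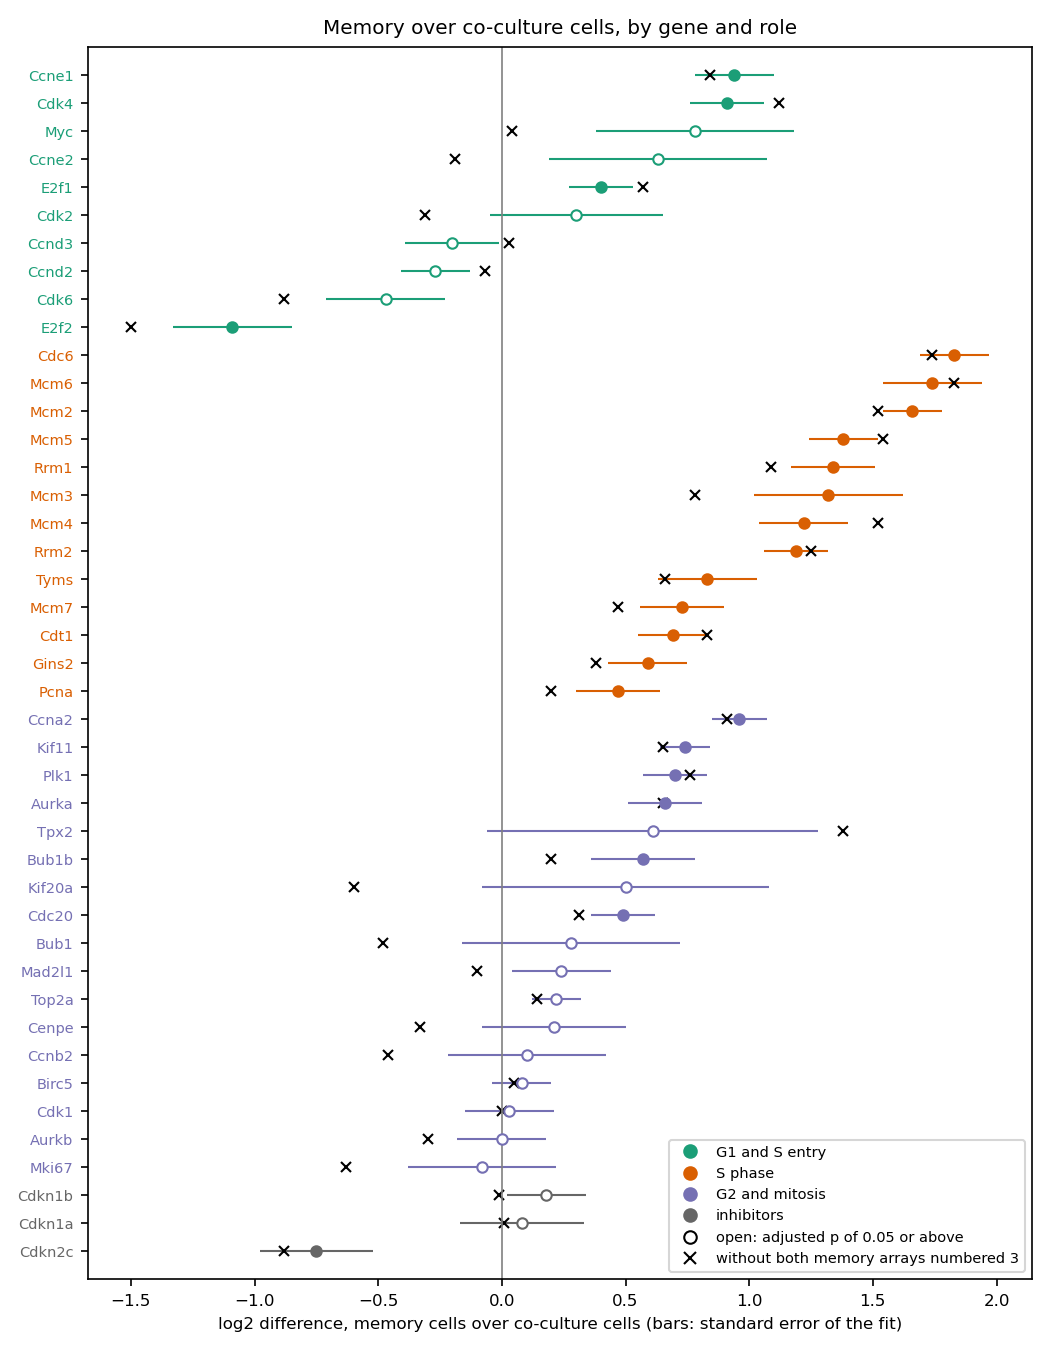
Log2 difference of each gene, memory over co-cultured cells, by role, with the standard error of the fit as a bar; filled points were called at an adjusted p under 0.05, and crosses give the value without both memory arrays numbered 3. The 13 S phase genes lie between 0.47 and 1.83, while several mitotic genes with open points lie above 0 with all arrays and below 0 without those 2 arrays.

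Genes of G2 and mitosis were split. Ccna2, cyclin A2, which acts from S phase to the start of mitosis, had 11.09, 11.23 and 11.43 in memory cells, against 10.01, 10.20 and 10.84 in co-cultured cells. Kif11 had 9.31, 9.41 and 9.62 in memory cells, against 8.43, 8.78 and 9.10. These 2 did not overlap between the experiments and rose by 0.96 ± 0.11 (limma, adjusted p = 2.06e-05) and 0.74 ± 0.10 (adjusted p = 0.000115), and they were the only mitotic genes also called with the block. The 3 probe sets of Kif11 ranged from 0.26 to 1.88, so the size of its rise depends on the probe set. Plk1, a kinase that drives mitotic entry and cytokinesis, had 8.91, 9.12 and 9.27 in memory cells and 8.13, 8.39 and 8.91 in co-cultured cells. Aurka, the kinase of the spindle poles, had 7.82, 7.94 and 8.21 in memory cells and 6.79, 7.32 and 7.83 in co-cultured cells. Both genes overlapped between the experiments at the edges, and the differences were 0.70 ± 0.13 and 0.66 ± 0.15, with block adjusted p = 0.167 and 0.124. Cdc20, an activator of the anaphase-promoting complex, had 10.62, 10.81 and 11.31 in memory cells against 10.22, 10.41 and 10.81, a difference of 0.49 ± 0.13 (block adjusted p = 0.204). Bub1b, a kinase of the spindle checkpoint, had 7.98, 8.03 and 9.24 in memory cells against 7.33, 7.81 and 8.13, a difference of 0.57 ± 0.21 that was called in 5 of 16 fits leaving out 1 array (block adjusted p = 0.234). Its highest levels were those of the arrays numbered 3, without which it was 0.20 ± 0.09 and not called (adjusted p = 0.0768), while Cdc20 was 0.31 ± 0.10 and still called. The 3 probe sets of Cdc20 ranged from 0.12 to 0.49. It was called in 6 of 10 alternative settings other than leaving out 1 array.

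The usual markers of dividing cells were not among them. Mki67, a protein of the chromosome surface in cycling cells, had 10.85, 11.10 and 12.65 in memory cells, against 11.39, 11.66 and 11.97 in co-cultured cells. On the 4 memory arrays numbered 1 and 2 it lay at 10.85 to 11.27, below every co-culture array, while the 2 arrays numbered 3 were above all others at 12.64 and 12.65. With all arrays the difference was -0.08 ± 0.30 (limma, adjusted p = 0.862), and without the arrays numbered 3 Mki67 was called lower at -0.63 ± 0.10 (adjusted p = 0.000301). Top2a, the topoisomerase that untangles chromosomes, had 12.05, 12.28 and 12.51 in memory cells and 11.85, 12.07 and 12.36 in co-cultured cells, a difference of 0.22 ± 0.10 that was not called (adjusted p = 0.0909). Cdk1, the mitotic kinase, differed by 0.03 ± 0.18 (adjusted p = 0.905).

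Leaving out both arrays numbered 3 moved the mitotic genes more than the S phase genes. Among S phase genes 12 of 13 were then called higher and none lower, with a median of 1.09, while 5 mitotic genes were higher and 5 lower with a median of 0.05 (4 and 2 with the block). The median over all genes was 0.09, and 33.1% of genes were called higher and 27.7% lower, or 26.5% and 24.7% with the block. Without the block, the counts of mitotic genes thus lay near the shares of all genes in both directions. The 5 mitotic genes called lower were Mki67, Ccnb2, Aurkb, Kif20a and Cenpe. Kif20a, a motor of cytokinesis, had 5.82, 5.95 and 9.17 on MemoryRA arrays 1, 2 and 3 and 5.50, 5.91 and 9.03 on Memory arrays 1, 2 and 3. The array medians were 5.88 to 5.98. The levels of Kif20a on the memory arrays numbered 1 and 2, and its lowest co-culture level of 5.90, lay near or below them. In all, 11 of the 43 genes were more than 1 higher on array 3 than on arrays 1 and 2 in both memory groups, against 11.4% of all genes, and 1 gene, Tpx2, was more than 1 lower, against 3.5%. Tpx2, which activates Aurka on the spindle, was at 10.57 to 11.26 on the memory arrays numbered 1 and 2 and at 8.33 and 8.79 on those numbered 3. On the co-culture arrays it was at 10.47 to 11.20 for number 1 and 8.29 to 8.88 for number 2. These levels are of 1 of the 4 probe sets of Tpx2, whose differences between the experiments ranged from 0.60 to 1.27.

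G1 genes were called in both directions. Cdk4 had 10.56, 11.18 and 11.44 in memory cells, against 9.73, 10.12 and 10.50 in co-cultured cells. Ccne1, cyclin E1, had 10.30, 10.48 and 10.88 in memory cells, against 9.10, 9.76 and 9.99. Neither overlapped between the experiments, and they rose by 0.91 ± 0.15 (limma, adjusted p = 0.000461) and 0.94 ± 0.16 (adjusted p = 0.000371, or 0.0521 with the block). The other probe set of Ccne1 was at 0.44. E2f1, an activating E2F, had 8.12, 8.66 and 8.87 in memory cells and 7.87, 8.16 and 8.35 in co-cultured cells. It was called at 0.40 ± 0.13 (adjusted p = 0.0258), but not with the block (adjusted p = 0.288), and 1 of its 3 probe sets was at -0.08. E2f2 went the other way, with 7.72, 8.17 and 9.33 in memory cells and 8.82, 9.65 and 10.08 in co-cultured cells, and fell by 1.09 on the log2 scale (SE 0.24, adjusted p = 0.00264). The other probe set of E2f2 was at -0.17, so the size of its fall depends on the probe set. Its 3 lowest co-culture arrays were those with added RA, at 8.82 to 8.97, and the share of all genes with that order was not counted. Myc, a driver of growth and S entry, had 7.43, 7.66 and 9.99 in memory cells and 6.99, 7.54 and 8.04 in co-cultured cells, and was not called (0.78 ± 0.40, or 0.04 ± 0.14 without the arrays numbered 3).

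Of the inhibitors, Cdkn2c, which binds Cdk4 and Cdk6, had 8.27, 8.91 and 9.34 in memory cells and 8.90, 9.68 and 10.22 in co-cultured cells. It fell by 0.75 on the log2 scale (SE 0.23; limma, adjusted p = 0.0188), which the block moved to an adjusted p of 0.0647. Cdkn1a spanned 9.21 to 10.23 in memory cells, inside its range of 7.70 to 11.43 in co-cultured cells. Cdkn1b, an inhibitor high in resting lymphocytes, spanned 8.77 to 9.96 against 8.73 to 9.23. Neither was called, at 0.08 ± 0.25 and 0.18 ± 0.16.

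Genes of the same pathways outside the 44 were counted from lists chosen with earlier results of these data known. Each count is to be read against the 21.9% of all genes called higher and 20.1% called lower. Of 36 other replication genes, 28 were higher in memory cells and none lower, led by Gins1 (2.15), Pola1 (1.60), Mcm10 (1.58) and Rfc4 (1.58). Of 48 other mitotic genes, 24 were higher and 3 lower, with Zwilch at 1.75, Kif2c at 1.72, Hmmr at 1.72 and Cdc25b, a phosphatase that activates Cdk1, at -1.70. The 20 other genes of G1 and S entry split into 7 higher and 3 lower, with Skp2 at 2.34 and Cdc25a at 1.93 against Mxd1, an antagonist of Myc, at -2.21 and Mxd4 at -1.56. Of 14 other inhibitors and anti-proliferative genes, 3 were higher and 8 lower, among them Ccng2 (-2.68), Gadd45g (-2.38), Tob1 (-2.26) and Btg2 (-2.13). Tob1 was at 8.88 and 9.55 on the memory arrays numbered 3 and at 4.77 to 7.02 on the other memory arrays. Of 20 growth genes regulated by Myc, 18 were higher and none lower, led by Nop58 (2.46), Srm (2.41), Shmt2 (2.40) and Cad (2.22). With the block the calls higher and lower were 19 and 0, 12 and 3, 3 and 3, 0 and 6, and 16 and 0, in the same order, against 9.15% and 9.18% of all genes. Without the arrays numbered 3 they were 26 and 2, 22 and 10, 9 and 5, 3 and 8, and 18 and 1, against 33.1% and 27.7%. Beside these results, summed intensities of T cell markers were 7870 to 10200 in memory cells and 16200 to 20100 in co-cultured cells, and those of 6 CD8 T and NK cell markers were 793 to 2000 in memory cells and 1640 to 6970 in co-cultured cells. Of these 6, Klrd1 (-3.63) and Nkg7 (-2.28) were lower in memory cells and Gzmk was higher (2.02), and their part in the result was not tested.

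In memory cells no replication or mitotic gene was called with RA, with or without the block. Of 13 S phase genes, 7 lay above 0 and 6 below, between -0.23 and 0.17, with a median of 0.01, and of 17 mitotic genes 10 lay above 0, between -0.35 and 0.17, while 49.7% of all genes lay above 0. No gene of the 43 was called by limma without the block, against 0.0987% of the 12163 genes tested, and 2 had an unadjusted p under 0.05, against 4.14% of all genes. With the array number as a block 2 were called, Cdk6 lower and Cdkn2c higher, against 5.15% of all genes, and 8 had an unadjusted p under 0.05, against 15.7%. The same memory cells did respond to RA elsewhere, as Ccr9, a gut-homing receptor induced by RA, was higher by 5.24 (adjusted p = 0.000544).

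Cdk6, the D-cyclin kinase of lymphocytes, had 9.37, 8.53 and 10.17 on MemoryRA arrays 1, 2 and 3, against 9.87, 10.00 and 11.16 on Memory arrays 1, 2 and 3. The RA array was the lower one in each of the 3 pairs, by 0.50 to 1.48, although the groups overlapped, since MemoryRA array 3 lay above Memory arrays 1 and 2. The difference was -0.99 ± 0.51 without the block (limma, adjusted p = 1) and -0.99 ± 0.18 with it (adjusted p = 0.0124), and all 3 probe sets lay below 0. Without both arrays numbered 3 it was -0.99 ± 0.25 with the block and was not called (adjusted p = 0.138).

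Cdkn2c, the inhibitor of that kinase, had 9.13, 8.98 and 9.34 on MemoryRA arrays 1, 2 and 3, against 8.41, 8.27 and 8.84 on Memory arrays 1, 2 and 3. Every MemoryRA array was above every Memory array. The difference was 0.64 ± 0.22 without the block (limma, adjusted p = 0.887) and 0.64 ± 0.13 with it (adjusted p = 0.0204), and 0.71 ± 0.17 without both arrays numbered 3 (block adjusted p = 0.121). Leaving out either array numbered 3 likewise ended both calls.

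Cdkn1a had 9.21, 9.75 and 9.81 on MemoryRA arrays 1, 2 and 3, against 10.21, 10.12 and 10.23 on Memory arrays 1, 2 and 3. The groups did not overlap, but the difference of -0.59 ± 0.16 missed the threshold with the block (limma, adjusted p = 0.0684). Groups without overlap made up 3.58% of all genes in this direction and 4.19% in the other. Cdkn1b had 8.77, 8.96 and 8.97 with RA, against 8.89, 8.93 and 9.96 without RA, where array 3 alone was high. Ccnd2, cyclin D2, had 11.65, 11.97 and 11.24 with RA, against 12.19, 12.20 and 11.59 without RA, lower in all 3 pairs at -0.37 ± 0.13 with the block (adjusted p = 0.178). Levels of Mki67, at 11.27, 10.85 and 12.65 with RA against 10.92, 10.90 and 12.64 without RA, were high on both arrays numbered 3 and lower on the other 4.

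From the other lists, 2 of 14 inhibitors and anti-proliferative genes were called lower with RA with the block, Tob1 at -1.17 (limma, adjusted p = 0.00374) and Gadd45g at -0.83 (adjusted p = 0.00666), against 2.44% of all genes called lower. Tob1 had 4.77, 5.55 and 8.88 on MemoryRA arrays 1, 2 and 3. On Memory arrays 1, 2 and 3 it had 6.14, 7.02 and 9.55. The levels of 4.77 and 5.55 lay below the lowest array median of 5.88. None of the other 37 replication, 49 mitotic, 20 G1 or 20 growth genes was called in either fit. Beside these results, the summed intensity of the 6 CD8 T and NK cell markers was 1680 to 2000 in MemoryRA cells and 793 to 1100 in Memory cells, with 3 of the 6 above the array median in each group. Nkg7, a granule gene of cytotoxic cells, was higher by 1.76 with RA (block adjusted p = 0.00034), and its part in the result was not tested.

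**Figure D3:**
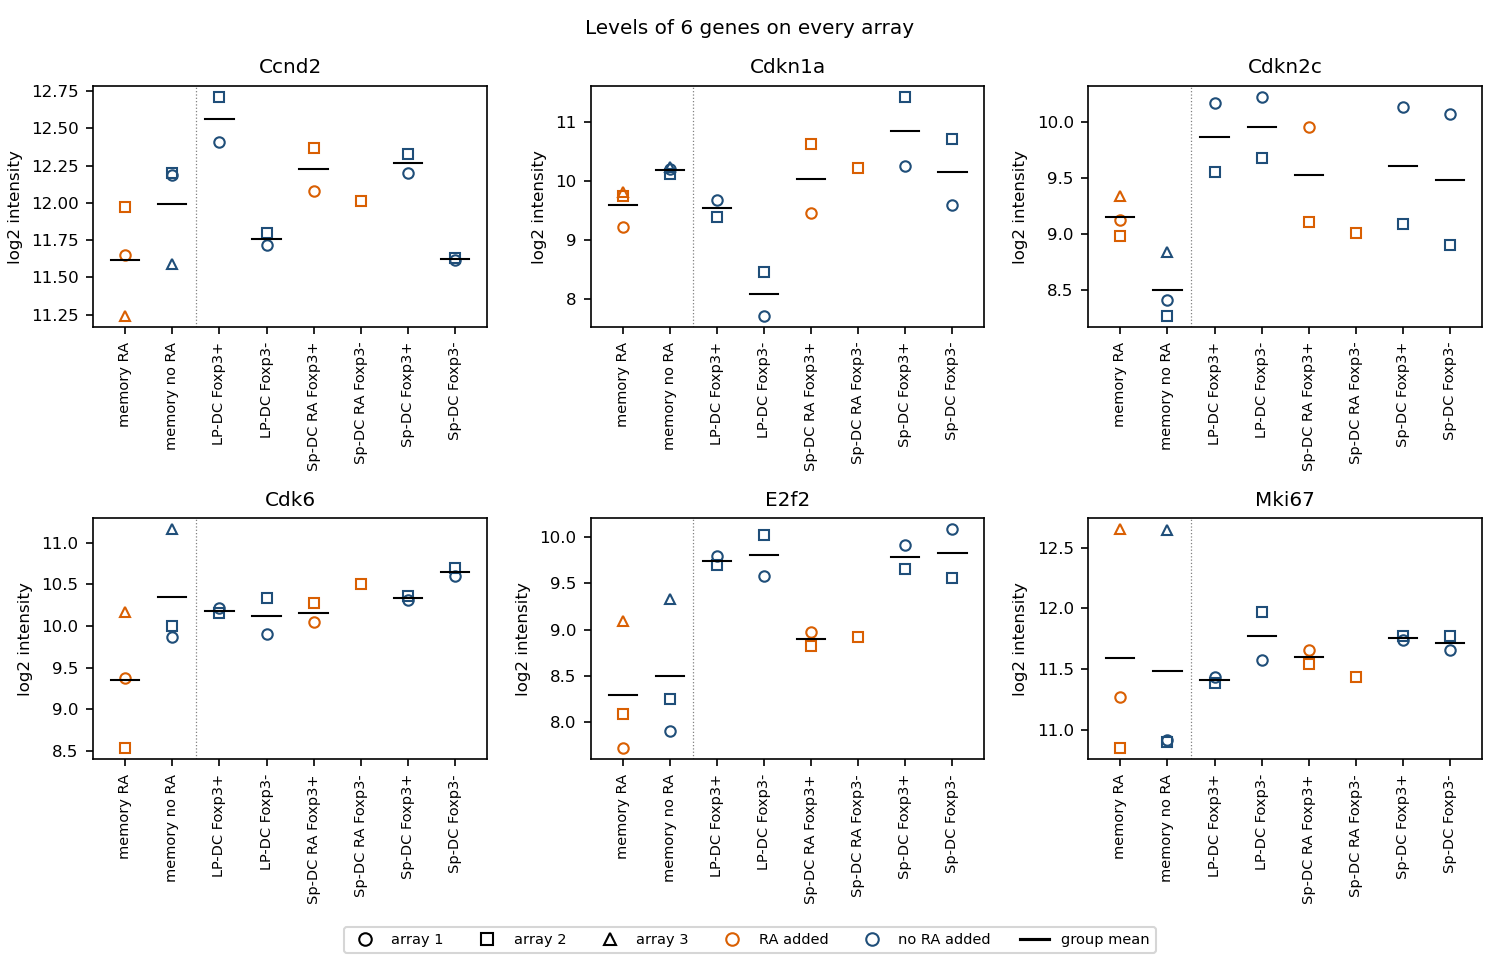
Log2 intensity of 6 genes on every array, with 1 panel per gene, 1 column per group and the array number as the symbol; horizontal lines are group means and orange marks added RA. Ccnd2 is higher in each Foxp3+ group than in its Foxp3- partner, Cdkn1a is lowest in LP-DC Foxp3- cells, Cdkn2c is higher on co-culture arrays numbered 1 than on their partners numbered 2, and Mki67 is highest on the memory arrays numbered 3.

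Foxp3+ cells differed from their Foxp3- partners most clearly in cyclin D2. Ccnd2, which carries T cells from G1 toward S phase, had 12.41 and 12.71 in LP-DC Foxp3+ cells against 11.72 and 11.80 in LP-DC Foxp3- cells. With RA on Sp-DC it had 12.08 and 12.37 in Foxp3+ cells against 12.01 on the single Foxp3- array, and on Sp-DC without RA it had 12.20 and 12.33 in Foxp3+ cells against 11.62 and 11.63 in Foxp3- cells. All 6 Foxp3+ arrays were above all 5 Foxp3- arrays, a separation toward Foxp3+ cells that 0.595% of all genes showed. Over the mean of the 3 cultures the difference was 0.55 ± 0.10 (1.46-fold), just outside the threshold without the block (limma, adjusted p = 0.0594) and 0.58 ± 0.08 and called with it (adjusted p = 0.00315). All 7 probe sets of Ccnd2 lay above 0, and the blocked call held in all 10 fits that left out 1 array and kept the RA Foxp3- array.

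No other gene of the 43 was called in the mean of the 3 cultures, with none called without the block (0.896% of the 11940 genes tested were) and Ccnd2 alone with it (4.75%). At an unadjusted p under 0.05 there were 6 and 12, against 7.92% and 14.8% of all genes. All 13 S phase genes lay below 0, between -0.38 and -0.06 with a median of -0.22, against -0.03 over all genes, of which 41.5% lay above 0, and none was called in either fit. No S phase or mitotic gene was without overlap, against 0.745% of all genes lower in Foxp3+ cells. Mcm5, for example, had 10.66 and 10.70 in LP-DC, 10.96 and 10.91 in Sp-DC with RA, and 10.49 and 10.49 in Sp-DC Foxp3+ cells, against 10.72 and 11.49, 10.97, and 10.99 and 10.88 in the matching Foxp3- cells. It was lower in all 5 pairs, by 0.05 to 0.79, at -0.28 ± 0.13 with the block (adjusted p = 0.354). Myc was higher in 5 of 5 pairs at 0.39 ± 0.17 (adjusted p = 0.626), and Cdkn1a in 5 of 5 at 0.65 ± 0.34 (adjusted p = 0.814, or 0.056 with the block).

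On LP-DC alone, Ccnd2 and the inhibitor Cdkn1a were called higher in Foxp3+ cells, with the block only. Ccnd2 differed by 0.80 ± 0.16 (1.74-fold; limma, adjusted p = 0.124, or 0.00887 with the block). Cdkn1a had 9.68 and 9.39 in LP-DC Foxp3+ cells, against 7.70 and 8.46 in LP-DC Foxp3- cells. Both Foxp3+ arrays were higher, by 1.46 ± 0.55 (2.74-fold; adjusted p = 0.651, or 0.0335 with the block). These 2 genes were the only ones called with the block, against 3.49% of all genes, and none was called without it, against 0.159%. At an unadjusted p under 0.05 there were 19 with the block and 8 without it, against 12.5% and 5.9% of all genes. Leaving out any of the 4 LP-DC arrays ended the call of Ccnd2 (highest adjusted p = 0.105), and the call of Cdkn1a was lost in 7 of 11 such fits (highest adjusted p = 0.133).

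All 13 S phase genes and all 17 mitotic genes lay below 0 in that comparison, with medians of -0.42 and -0.38, against 0.00 over all genes, of which 50.4% lay above 0. None of these 30 was called in either fit. LP-DC Foxp3- array 2 was the highest of the 4 arrays for 26 of them: Mki67 had 11.44 and 11.39 in Foxp3+ cells against 11.58 and 11.97 in Foxp3- cells, and Top2a had 11.94 and 11.85 against 12.04 and 12.36. Pcna had 12.22 and 11.93 in Foxp3+ cells, against 12.15 and 12.42 in Foxp3- cells. The groups did not overlap for 8 S phase and 11 mitotic genes, all lower in Foxp3+ cells, while 14.5% of all genes were separated in that direction with 2 arrays a group and 14.7% in the other. On Sp-DC without RA the S phase genes again lay below 0, all 13 between -0.59 and -0.02, and the mitotic genes were divided, with 9 of 17 above 0 and a median of 0.04, while 45% of all genes lay above 0. Without overlap were 12 of the 43 genes with lower levels in Foxp3+ cells, 6 of them S phase genes, against 15.3% of all genes, and Ccnd2 with higher levels, against 12.5%. No gene of the 43 was called there by limma in either fit, against 0% and 0.586% of all genes, and 1 and 8 had an unadjusted p under 0.05, against 3.5% and 9.56%. The test of the difference between LP-DC and Sp-DC in the sort effect called none of the 43 in either fit, and none of all 11940 genes, while the mitotic median of that difference was -0.34 and the S phase median -0.11, with 0 and 2 of the 43 at an unadjusted p under 0.05, against 0.905% and 3.68% of all genes.

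Among the other lists, over the mean of the 3 cultures, with the block, Pold1 (-0.42), Cdc7 (-0.41) and Rpa1 (-0.38) were lower in Foxp3+ cells, 3 of 36 other replication genes, against 2.14% of all genes. Mxd1 (1.28), Tob2 (0.72), Gadd45g (0.59) and Odc1 (0.46) were higher, against 2.61% of all genes. On LP-DC Mxd1 (1.99), Gadd45g (1.18), Gadd45b (1.16), Tob2 (0.77) and Tob1 (0.74) were higher and Rpa1 (-0.63) lower, against 2.37% and 1.12% of all genes. On Sp-DC Mxd1 (1.09) was higher, against 0.293%. None of these passed without the block, and none of 48 other mitotic genes was called in any of the 3. Beside these results, the summed intensity of the CD8 T and NK cell markers was lower in Foxp3+ cells, at 1640 to 2140 in LP-DC, 2130 to 2160 in Sp-DC with RA and 4000 to 4800 in Sp-DC, against 4490 to 5690, 3450, and 6190 to 6970 in the matching Foxp3- cells. Klrd1 carried a difference of -2.23 (adjusted p = 0.0154), and its part in the result was not tested.

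Between LP-DC and Sp-DC cultures, Cdkn1a was the 1 gene called, in Foxp3- cells and with the block only. It had 7.70 and 8.46 with LP-DC, against 9.60 and 10.72 with Sp-DC. The difference was -2.08 ± 0.55 (4.23-fold lower; limma, adjusted p = 0.497, or 0.0377 with the block at SE 0.31), and both of its probe sets lay at or below -2.08. It was the only gene of the 43 called with the block, against 0.586% of all genes, and none was called without it, against 0%. At an unadjusted p under 0.05 there were 5 and 2 in these fits, against 16.7% and 6.66% of all genes. All its LP-DC arrays were below its Sp-DC arrays, a separation that 17.4% of all genes showed. The same arrays enter the comparisons of Foxp3+ with Foxp3- cells above. Leaving out any of these 4 arrays ended the call (highest adjusted p = 0.414). In Foxp3+ cells Cdkn1a had 9.68 and 9.39 with LP-DC, against 10.26 and 11.43 with Sp-DC, at -1.31 ± 0.31 with the block (adjusted p = 0.0618).

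In Foxp3+ cells, most mitotic genes had lower levels with LP-DC, although none was called. Of the 17, 16 lay below 0, between -0.52 and 0.06 with a median of -0.34, and 11 did not overlap, all lower, against 18.3% of all genes. Aurkb, the kinase that corrects chromosome attachment, had 9.27 and 9.22 with LP-DC, against 9.66 and 9.86 with Sp-DC, at -0.52 (block adjusted p = 0.0835). Mki67, at 11.44 and 11.39 against 11.74 and 11.77, differed by -0.34 ± 0.15 with the block (adjusted p = 0.244). S phase genes lay on both sides, 7 of 13 above 0 with a median of 0.03, while 51% of all genes lay above 0. Only 3 of them were without overlap toward LP-DC, against 20.2% of all genes. No gene of the 43 was called by limma in either fit, against 0% and 1.44% of all genes, and 2 and 10 had an unadjusted p under 0.05, against 8.03% and 18.9%. In Foxp3- cells the mitotic median was 0.04, and 23 of the 43 lay above 0, against 49.3% of all genes. Of the other lists, Tob1 was higher with LP-DC in Foxp3+ cells (1.03) and Gadd45g lower in Foxp3- cells (-1.01), both only with the block, against 0.963% and 0.469% of all genes in those directions. The CD8 T and NK cell sum, given above, was also lower with LP-DC, and its part in these values was not tested. Of the 4 tested genes in that sum, 1 lay above 0 in Foxp3+ cells and 3 in Foxp3- cells. The lower sum in Foxp3- cells went with Nkg7, at 11.28 and 10.45 with LP-DC against 12.13 and 11.48 with Sp-DC.

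**Figure D4:**
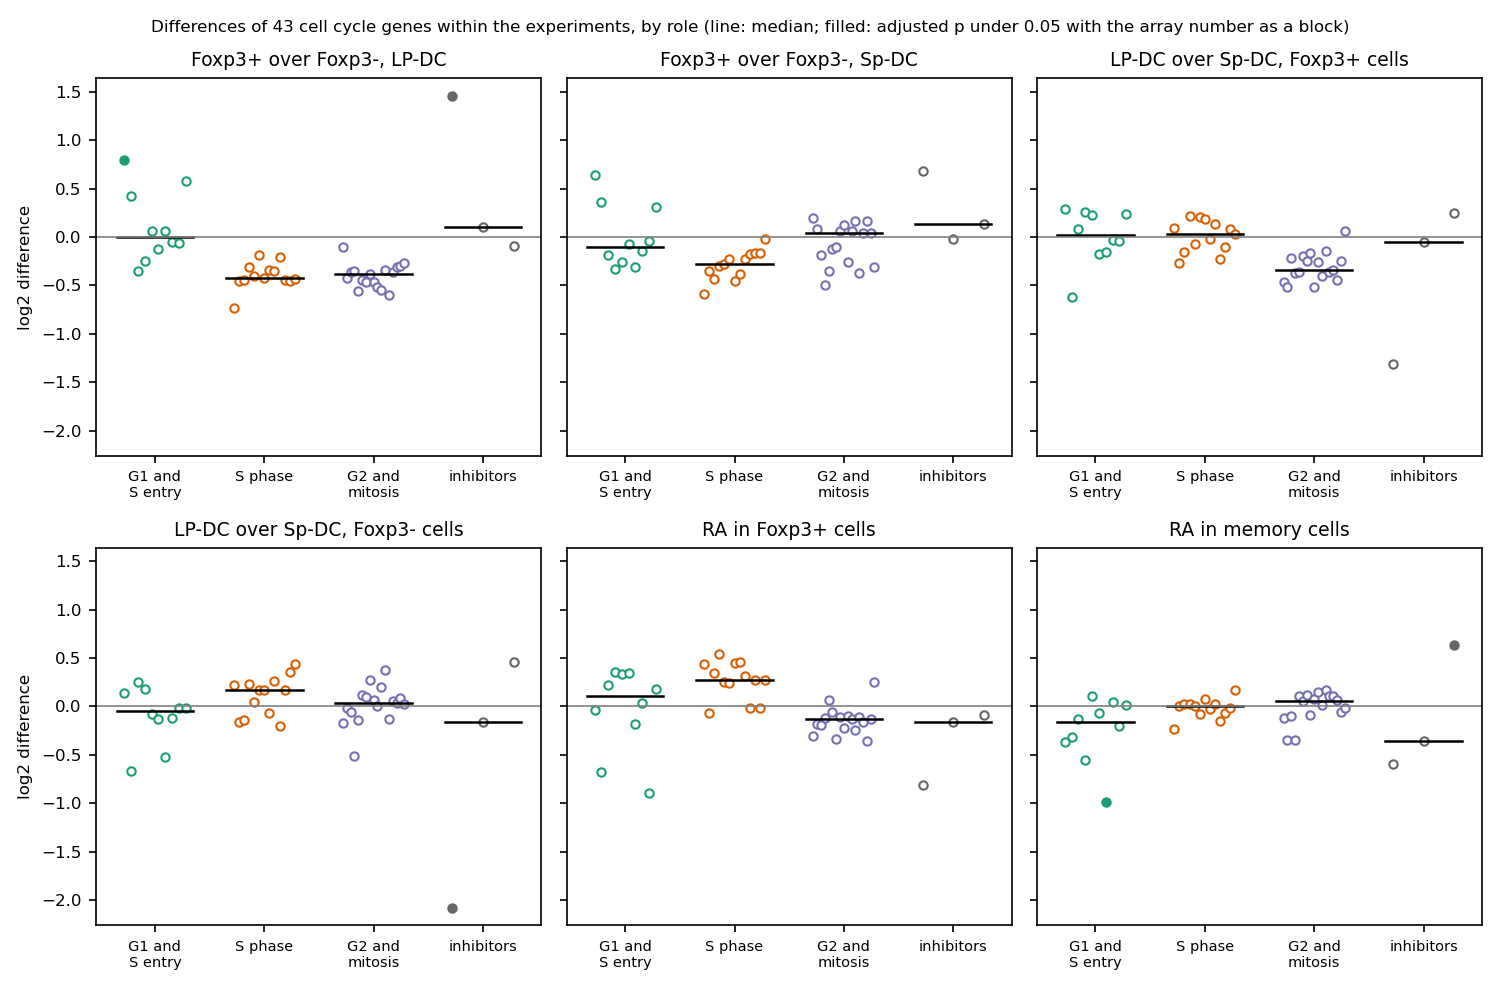
Log2 difference of each of the 43 genes in 6 comparisons within an experiment, in columns by role, with the median as a line; filled points were called with the array number as a block. S phase medians lie at -0.42 and -0.28 for Foxp3+ over Foxp3- cells and at 0.27 for RA in Foxp3+ cells, and the few filled points belong to Ccnd2, Cdk6 and the inhibitors.

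With RA added to Sp-DC cultures, E2f2 had the largest difference among the 43 genes in Foxp3+ cells, although it was not called. It had 8.97 and 8.82 with RA, against 9.91 and 9.65 without RA, and the single Foxp3- array with RA lay at 8.92, against 10.08 and 9.56 in Foxp3- cells without RA. None of these RA arrays reached an Sp-DC array without RA. How many of all genes were separated in this way over both sorts was not counted. In Foxp3+ cells alone, 12.2% of all genes were lower with RA without overlap. The difference in Foxp3+ cells was -0.89 ± 0.22 (1.85-fold lower; limma, adjusted p = 0.422), and with the block -0.89 ± 0.20 (adjusted p = 0.081), so it was not called in either fit. Ccnd3, cyclin D3, had 9.64 and 10.30 with RA, against 10.33 and 10.95 without RA, lower in both pairs at -0.68 ± 0.15 with the block (adjusted p = 0.0688). The other probe sets of Ccnd3 were at 0.08 and -0.38, so its direction and size depend on the probe set. Cdkn1a had 9.45 and 10.63 with RA, against 10.26 and 11.43 without RA. It was lower in both pairs, by 0.80 and 0.81, while the groups overlapped (block adjusted p = 0.318).

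Of the S phase genes, 10 of 13 lay above 0 with RA, with a median of 0.27, and 7 did not overlap, against 13.2% of all genes in that direction. Mcm5 had 10.96 and 10.91 with RA, against 10.49 and 10.49 without RA, at 0.45 ± 0.20 with the block (adjusted p = 0.411). Of the 17 mitotic genes, 15 lay below 0, with a median of -0.13, while 49.7% of all genes lay above 0. Without overlap toward lower levels were 8 of the 43, E2f2 and Ccnd3 among them, against 12.2% of all genes. No gene of the 43 was called by limma in either fit, against 0.101% and 1.03% of all genes, and 2 and 5 had an unadjusted p under 0.05, against 4.82% and 12.3%. From the other lists, Lig1, the ligase that joins replicated fragments, was higher with RA by 1.33 (block adjusted p = 0.0113), 1 of 36 replication genes, against 0.586% of all genes. Growth genes regulated by Myc lay above 0 in 18 of 20, with a median of 0.41 and none called. This comparison shares the Sp-DC Foxp3+ arrays with those of LP-DC over Sp-DC and of Foxp3+ over Foxp3- cells on Sp-DC. The CD8 T and NK cell sum was 2130 to 2160 with RA and 4000 to 4800 without RA, and its part in the result was not tested. Of the 4 tested genes in that sum, 2 lay above 0, the highest at 0.07. Nkg7 had 10.65 and 10.55 with RA, against 11.66 and 11.78 without RA. Klrd1 had 7.42 and 8.24 with RA, against 8.69 and 9.82 without RA.

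Whether RA acted differently in the 2 experiments was tested by the difference of its effects, memory cells minus Foxp3+ cells. None of the 43 was called by limma in either fit, against 0.052% and 1.26% of all genes, and 0 and 5 had an unadjusted p under 0.05, against 2.61% and 11%. Side by side, the S phase medians were 0.01 in memory cells and 0.27 in Foxp3+ cells. E2f2 differed by -0.20 ± 0.12 in memory cells with the block and by -0.89 ± 0.20 in Foxp3+ cells. For Cdkn2c the values were 0.64 ± 0.13 and -0.09 ± 0.17, and for Cdk6 -0.99 ± 0.18 and -0.18 ± 0.14. Lig1 was the 1 gene of the other lists called with the block (-1.05, adjusted p = 0.0408), against 0.477% of all genes called lower.

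Within the co-culture, Cdkn2c differed by array number. It lay at 9.95 to 10.22 on the 5 arrays numbered 1 and at 8.90 to 9.68 on the 6 numbered 2, with array 2 lower in all 5 pairs by 0.54 to 1.17. Cdk1, Aurka, Cdk2 and Tpx2 were also lower on array 2 in all 5 pairs. Mcm6, Bub1, Ccnb2, Ccnd2, Ccnd3, Mcm3, Cdt1 and Gins2 were higher in all 5. How many of all genes differed by array number in this way was not counted. Residuals of same-numbered co-culture arrays correlated at 0.45 to 0.76 over all genes tested, so such differences are not particular to these genes. Cdkn1b was the steadiest of the inhibitors, at 9.06 and 8.77 in LP-DC, 8.75 and 8.85 in Sp-DC with RA and 9.04 and 8.89 in Sp-DC Foxp3+ cells, against 8.87 and 8.77, 8.90, and 9.23 and 8.73 in the matching Foxp3- cells. Myc had 8.04 and 7.59 in LP-DC, 7.59 and 7.93 in Sp-DC with RA and 7.73 and 7.43 in Sp-DC Foxp3+ cells, against 7.02 and 7.47, 7.48, and 7.54 and 6.99 in the matching Foxp3- cells.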

How the data were processed

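For 17 arrays and 45101 probe sets, the authors deposited intensity on a linear scale, made per the series' design text and the labels with RMA in GenePattern (version not given in the sources used here). The log2 of each value was taken with no value added and no further normalization. The number of arrays limits the precision. Probe sets with 1 gene symbol (34958) were kept, and a gene with several is read by the brightest, cross-hybridizing (x_at) kinds included, which 8 of the 43 genes use. A gene was tested in an experiment where 2 or more arrays exceeded their median, which left 11940 genes (co-culture), 12163 (memory) and 11537 (both).

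Each experiment had its own limma 3.58.1 fit (R 4.3.3), a group mean model, as did all arrays together for the 2 comparisons across experiments, with Benjamini-Hochberg adjustment. Residuals of same-numbered arrays correlated at 0.45 to 0.76 over 10 pairs of co-culture groups and at 0.66 to 0.94 in the memory groups, so the numbers given in the labels pair the arrays; the block is their fixed term, or, across experiments, a random term (correlation 0.73). The tests were tried on simulated data. The members, lists and tests were chosen with earlier results of these data known. Genes named from the other lists are at most the largest 4 calls of each list in either fit. Levels, on every array or as a summary over the arrays of an experiment, are given for genes called in either fit and for a set of landmark genes. A promoter with several starts is shown at the first one. A second Foxp3- array of Sp-DC with RA is not analysed here. Alternatives were the block, the mean over a gene's probe sets, adding 32 before the log2, a stricter filter or none, quantile normalization, median-centring, leaving out arrays and, added after the data were seen, leaving out both memory arrays numbered 3 and passing over x_at probe sets.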

Additional observations from a re-analysis of the deposited data

How the results depend on the processing

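Among the counts of calls and the genes called in some fit, for which the alternatives were tabulated, no value turned its direction. Of the 43 genes, 9 that were not called for memory over co-cultured cells did so without both memory arrays numbered 3: Kif20a (0.50 with all arrays, -0.60 without these), Ccnb2 (0.10, -0.46) and Cenpe (0.21, -0.33), then called lower, and Cdk2, Ccne2, Ccnd3, Bub1, Mad2l1 and Cdkn1b, not called either way. The other probe set of Bub1 was at 1.38 with all arrays. With the replicate block, which follows the pairing of the array numbers, the genes called moved to 626 (2 of the 43) for RA in memory cells, against 12 without it. They moved to 567 (1) for the mean sort difference, 417 (2) for the LP-DC sort, 70 (0) for the Sp-DC sort, 123 (0) for RA in Foxp3+ cells and 172 (0) for LP-DC over Sp-DC in Foxp3+ cells. They moved to 70 (1) for LP-DC over Sp-DC in Foxp3- cells, 2115 (13) for memory over co-cultured cells and 145 (0) for the difference in the effect of RA. Without the block these counts were 107, 19, 0, 12, 0, 0, 4839 (24 of the 43) and 6. Quantile normalization called 1 of the 43 in the mean sort difference, which was Ccnd2, as did the mean over all its probe sets, and these settings called 47 and 37 genes for the LP-DC sort. With no filter, 11 genes were called for the difference in the effect of RA. Without both memory arrays numbered 3, which was chosen after seeing the data, 205 genes were called for RA in memory cells (216 with the replicate block) and 12 for the difference in the effect of RA. Leaving out 1 array at a time gave 3 to 94 genes for the mean sort difference, 0 to 34 for the LP-DC sort, 5 to 16 for RA in Foxp3+ cells, 3 to 8 for RA in memory cells, 1 to 8 for the difference in the effect of RA, and 4212 to 5526 (21 to 23 of the 43) for memory over co-cultured cells; the lowest count of the mean sort came without Sp-DC Foxp3- array 1. In those fits Pcna, Bub1b, E2f1 and Cdkn2c kept their call in 3, 5, 12 and 15 of 16. Leaving out the single Foxp3- array of Sp-DC with RA gives no value for the mean sort difference or for memory over co-cultured cells. Of the values for single genes under all alternatives, 684 kept their direction and side of the threshold, 44 passed it newly and 56 no longer did.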
